A study of Mus musculus with 10 samples.

Results

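The genes described here are 45 genes of mitosis and chromosome segregation, given as a list of symbols. They were looked up in both deposited tables of RNA abundance, which each list 55357 genes. Of the Drosha rows, 22369 came with no symbol: a reference supplied 20024 and 2345 were kept by identifier, giving 55189 entries. Of the Dicer1 rows, 22339 were blank for symbol and stayed unnamed (4.25% to 6.22% of a library's total abundance), giving 32931 named genes. Shares of all genes tested thus rest on different sets of genes in the tables. All 45 mitotic genes were found in both tables, and the rule that picks them uses the symbol alone. The cells were OP9, stromal cells of mouse bone marrow that form adipocytes in culture. The 10 libraries fell into 4 groups: a Drosha knockout (3 libraries, batch 2), an empty vector control (3 libraries, batch 2), a Dicer1 knockout (2 libraries, batch 1) and an empty vector control (2 libraries, batch 1). Cells of every group, controls included, had received 1 µM rosiglitazone, a drug that activates PPARγ, the master regulator of fat cells, from confluence on for 10 days. The controls carry the genotype WT in the labels. The labels do not say whether a knockout is a single clone or a pool, nor whether replicates were separate cultures, so the p-values reflect library-to-library spread that may be technical only. Drosha and Dicer1 are the nuclear and the cytoplasmic RNase that cut microRNA precursors, and the series title connects Drosha to adipogenesis.

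Mitosis divides the copied chromosomes between daughter cells. The kinase Cdk1 with cyclin B starts it, chromosomes condense and attach through kinetochores to the spindle, and a checkpoint holds back the anaphase-promoting complex (APC/C, a ubiquitin ligase) until every chromosome is attached. Most genes of this programme are read in G2 and M phase and kept off in resting cells by the DREAM repressor complex, which binds a short promoter element called the cell cycle genes homology region (CHR). In adipocyte cultures, preadipocytes can divide before they differentiate, and mature fat cells have left the cycle.

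Promoters of the members were examined because this programme is switched through shared elements. RefSeq (GRCm38.p6) gave 40 windows for 38 of the 45 genes, each running from 250 bases before to 50 bases after the annotated start, 300 bases in all; Prc1 and Ect2 have overlapping windows from 2 starts. The table held no window for Foxm1, Ccna2, Cdc25c, Aurkb, Tpx2, Kif20a and Incenp. The 7 printed below are, for each role in mitosis, the gene with the highest mean TPM among those that hold both a CHR core and a CCAAT box. Each reads 5′ to 3′ in the direction of the gene, and capitals mark every match to TTTGAA or TTCGAA (the CHR core) or to CCAAT (the box bound by NF-Y) on either strand, so that TTCAAA and ATTGG are matches on the opposite strand. The windows are chr10:69352863-69353162 (minus strand) for Cdk1, chr2:164769679-164769978 (plus) for Ube2c, chr4:124936868-124937167 (minus) for Cdca8 and chr5:30666636-30666935 (plus) for Cenpa. Those of the other genes are chr19:37376132-37376431 (plus) for Kif11, chr15:99651607-99651906 (minus) for Racgap1 and chr11:99024140-99024439 (minus) for Top2a.
Cdk1: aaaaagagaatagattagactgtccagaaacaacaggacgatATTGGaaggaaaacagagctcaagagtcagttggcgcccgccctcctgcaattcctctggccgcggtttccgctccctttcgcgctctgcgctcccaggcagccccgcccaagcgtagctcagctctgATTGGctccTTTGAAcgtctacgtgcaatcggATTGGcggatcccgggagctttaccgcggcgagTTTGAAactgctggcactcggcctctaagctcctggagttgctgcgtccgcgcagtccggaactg
Ube2c: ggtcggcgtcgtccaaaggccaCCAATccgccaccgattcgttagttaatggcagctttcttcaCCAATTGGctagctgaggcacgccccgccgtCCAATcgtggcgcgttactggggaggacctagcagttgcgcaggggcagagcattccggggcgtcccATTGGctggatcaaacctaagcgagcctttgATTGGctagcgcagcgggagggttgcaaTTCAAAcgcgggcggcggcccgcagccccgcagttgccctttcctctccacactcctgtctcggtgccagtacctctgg
Cdca8: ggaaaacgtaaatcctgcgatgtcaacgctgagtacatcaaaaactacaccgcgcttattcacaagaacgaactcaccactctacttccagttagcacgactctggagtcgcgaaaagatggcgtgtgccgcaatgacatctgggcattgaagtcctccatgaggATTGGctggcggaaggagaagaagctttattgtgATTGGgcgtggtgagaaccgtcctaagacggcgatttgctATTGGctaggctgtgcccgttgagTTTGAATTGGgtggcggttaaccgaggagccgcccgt
Cenpa: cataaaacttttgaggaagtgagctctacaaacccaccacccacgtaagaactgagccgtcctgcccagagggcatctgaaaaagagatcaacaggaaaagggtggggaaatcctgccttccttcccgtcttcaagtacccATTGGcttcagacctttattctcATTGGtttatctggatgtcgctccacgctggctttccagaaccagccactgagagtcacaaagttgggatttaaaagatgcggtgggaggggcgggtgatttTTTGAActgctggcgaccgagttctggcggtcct
Kif11: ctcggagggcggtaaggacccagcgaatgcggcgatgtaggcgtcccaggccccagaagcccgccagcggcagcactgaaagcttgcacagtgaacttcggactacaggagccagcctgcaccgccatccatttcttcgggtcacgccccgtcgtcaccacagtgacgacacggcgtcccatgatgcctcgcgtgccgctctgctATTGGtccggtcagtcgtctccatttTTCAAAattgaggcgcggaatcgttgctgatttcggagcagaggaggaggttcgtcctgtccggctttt
Racgap1: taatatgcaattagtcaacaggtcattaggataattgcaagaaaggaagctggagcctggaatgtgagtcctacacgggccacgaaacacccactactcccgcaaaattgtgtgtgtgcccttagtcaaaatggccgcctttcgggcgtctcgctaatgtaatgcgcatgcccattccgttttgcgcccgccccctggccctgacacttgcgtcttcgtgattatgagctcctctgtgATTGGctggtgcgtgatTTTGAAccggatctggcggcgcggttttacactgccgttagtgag
Top2a: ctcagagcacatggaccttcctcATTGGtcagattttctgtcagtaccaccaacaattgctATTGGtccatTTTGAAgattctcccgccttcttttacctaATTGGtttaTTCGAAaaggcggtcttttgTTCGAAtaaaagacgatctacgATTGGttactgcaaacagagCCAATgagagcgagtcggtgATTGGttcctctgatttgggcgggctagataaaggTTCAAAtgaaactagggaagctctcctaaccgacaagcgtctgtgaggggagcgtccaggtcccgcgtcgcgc

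The CHR core was found in 32 of the 40 member windows (80%), against 19.2% of all 32851 windows of the table and 13.7% of the 12032 windows of other genes tested in the Drosha table. TTTGAA alone was in 31 member windows (77.5%), against 17.9% of all windows. A match to CCAAT was in 75% of member windows and 37.4% of all windows, and both elements were in 70% and 7.52%. Member windows with 2 or more CCAAT matches made up 50%, against 11.7% of all windows. Matches of the core lay close to the start: 72.5% of member windows had one beginning within 50 bases of it, against 5.31% of all windows. In Ube2c, 2 CCAAT matches on opposite strands share letters in the run CCAATTGG, and in Cdca8 the core overlaps a CCAAT match in TTTGAATTGG. The match itself is a description of letters, not of binding.

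**Figure D1:**
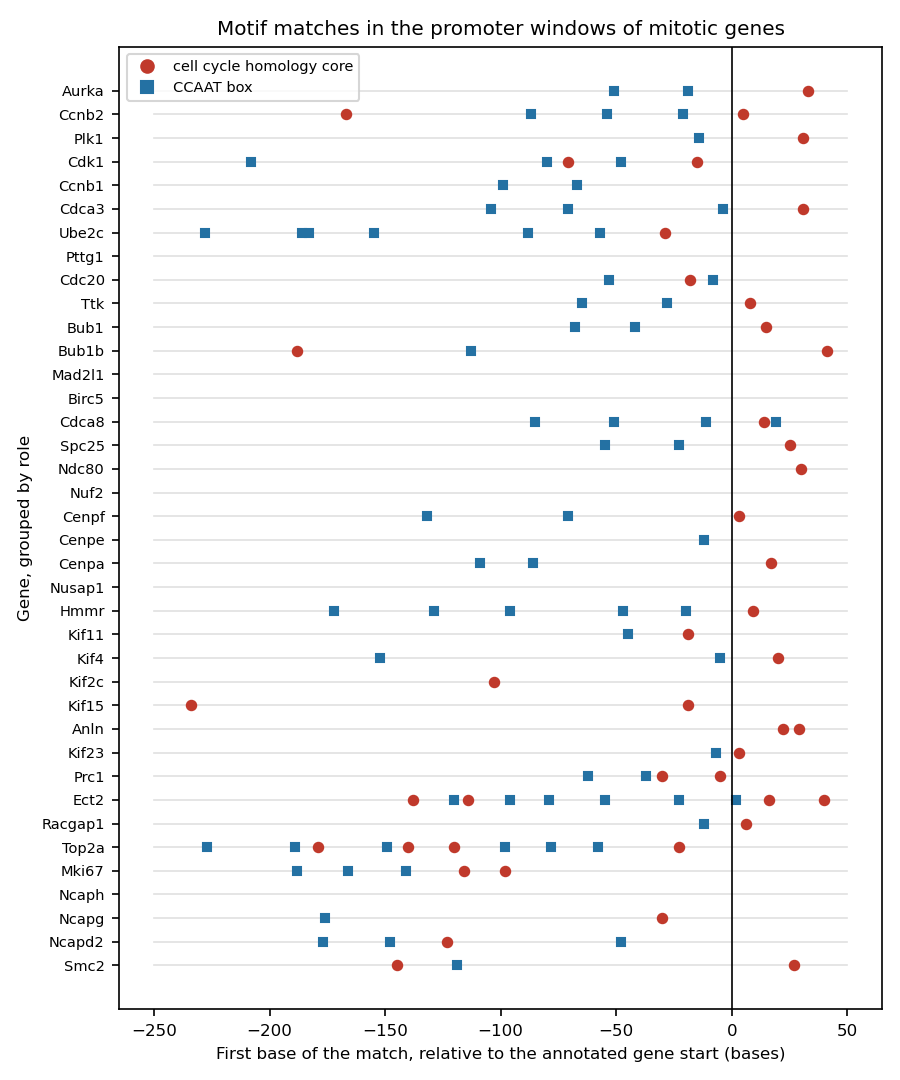
First base of each match to the CHR core (red circles) or to CCAAT (blue squares), in bases from the annotated gene start, for the 38 genes with a promoter window, grouped by role. Over these windows the median first base is -10 for the 44 CHR matches and -71 for the 70 CCAAT matches, counting Prc1 and Ect2 once for each of their windows.

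Among the 38 genes with a window, 8 had no CHR core in it: Birc5, Ccnb1, Cenpe, Mad2l1, Ncaph, Nuf2, Nusap1 and Pttg1. Log2 fold changes of TPM + 1 had a median of 1.00 in Drosha knockout and -1.76 in Dicer1 knockout over these 8 genes, of 1.00 and -1.74 over the 30 genes with a core, and of 1.11 and -1.76 over the 7 genes without a window. The groups of genes were not tested against each other.

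The RNA of these genes was measured as TPM, a length-corrected share of all transcripts in a library; TPM hold no read totals, and the depth is unknown. Between libraries of the same group, Pearson's r across genes was 0.972 for the batch 1 empty vector, 0.982 for Dicer1 knockout and at least 0.989 in batch 2. Drosha RNA stood at 14.8, 13.7 and 15.6 TPM in the Drosha knockout libraries, against 38.9, 39.6 and 38.6 TPM in their controls. Dicer1 RNA stood at 19.3 and 14.9 TPM in the Dicer1 knockout libraries, against 23.8 and 17.3 TPM in their controls; these ranges overlap, so Dicer1 RNA does not check that label. In Drosha knockout Dicer1 RNA rose, at 18.8, 16.5 and 19.6 TPM against 9.52, 8.49 and 9.21 TPM in empty vector (0.94 ± 0.08, limma adjusted p = 0.000132). Changes are given as log2 fold changes ± SE on the log2(TPM + 1) scale, which understates the change of genes near 1 TPM, from limma fits over all genes with Benjamini-Hochberg adjustment. Calls were made where the adjusted p was below 0.05. All 45 members passed the filter on low values in both tables.

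Mitotic genes were higher in Drosha knockout and lower in Dicer1 knockout than in the control of the same batch. The 45 genes summed to 534.7, 550.1 and 562.2 TPM in the Drosha knockout libraries, against 238.3, 229.5 and 237.6 TPM in the batch 2 empty vector, a ratio of 2.34. They summed to 356.5 and 396.5 TPM in the Dicer1 knockout libraries, against 1935.3 and 1001.2 TPM in the batch 1 empty vector, a ratio of 0.256. The sums do not overlap in either comparison, and the knockouts lie on opposite sides of their own controls. RNA of the whole culture was measured, so more cells in mitosis and more mitotic RNA per cell cannot be told apart.

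**Figure D2:**
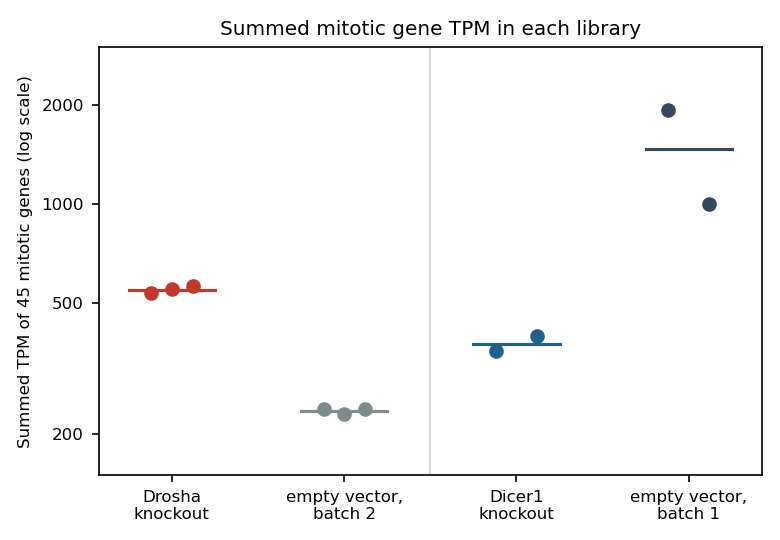
Summed TPM of the 45 mitotic genes in each library (points, log axis) with the group mean (line), for the Drosha knockout and its batch 2 control on the left and the Dicer1 knockout and its batch 1 control on the right. The 3 Drosha knockout libraries sit between 534.7 and 562.2, above their controls at 229.5 to 238.3, and the Dicer1 knockout libraries at 356.5 and 396.5 sit below their controls at 1935.3 and 1001.2.

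In Drosha knockout, 42 of the 45 genes rose, 0 fell and 3 were not called, where limma called 35.3% of the 12739 genes tested as higher. The median change was 1.00, within a range of 0.12 to 1.49, against a median of 0.13 over all genes tested. For 43 of the 45, every knockout library lay above every control library, as was so for 44.1% of all genes tested. In Dicer1 knockout, 40 of the 45 fell, 0 rose and 5 were not called, where 9.6% of the 12239 genes tested were called lower. That median was -1.75, within a range of -3.08 to -0.53, against 0.15 over all genes tested. For 44 of the 45, both knockout libraries lay below both controls, as was so for 24.2% of all genes tested. In all, 39 genes were called both higher in Drosha knockout and lower in Dicer1 knockout. The share of all genes with both calls was not computed, so only the single shares above stand beside this count. After median-ratio scaling, calls over all genes went from 4502 higher and 945 lower to 2310 and 2084 in Drosha knockout, and from 2627 and 1175 to 1465 and 1711 in Dicer1 knockout, while the members stood at 42 higher and 43 lower.

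The calls in Dicer1 knockout rest on few libraries. Fewer members were called when either Dicer1 knockout library was left out, and fewer of all genes were too. With no filter on low values 11 of the 45 were called lower. Lower calls over all genes then went from 1175 of 12239 to 485 of 20435. No member was called higher in any of these fits. With 1 library left in a group, that library is assumed to vary like the libraries of the other group. The batch 1 empty vector libraries also stood apart from each other. All 45 genes were higher in replicate 1 than in replicate 2, by 1.29 to 2.78 times (median 1.91). The median over all genes tested in the Dicer1 table was 1.07. Without empty vector replicate 1 the median change was -1.34, and without replicate 2 it was -2.16. In those fits the spread comes from the knockout libraries alone.

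The changes themselves differed between the comparisons, in which knockout and batch coincide, so a difference between knockouts and one between batches cannot be told apart. The change in Drosha knockout minus that in Dicer1 knockout, tested in 1 limma fit of all 10 libraries, was above 0 at an adjusted p under 0.05 for 44 of the 45 genes, where 17.4% of the 11146 genes tested in both tables were called in that direction. It had a median of 2.88, and ran from 1.62 for Incenp to 4.27 for Ccnb1 among the 44 genes. The highest adjusted p among them was 0.00911 (Cenpf). Kif15 was the exception (0.65 ± 0.57, limma adjusted p = 0.414). That fit gives all groups 1 spread per gene, although the batch 1 controls varied most.

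**Figure D3:**
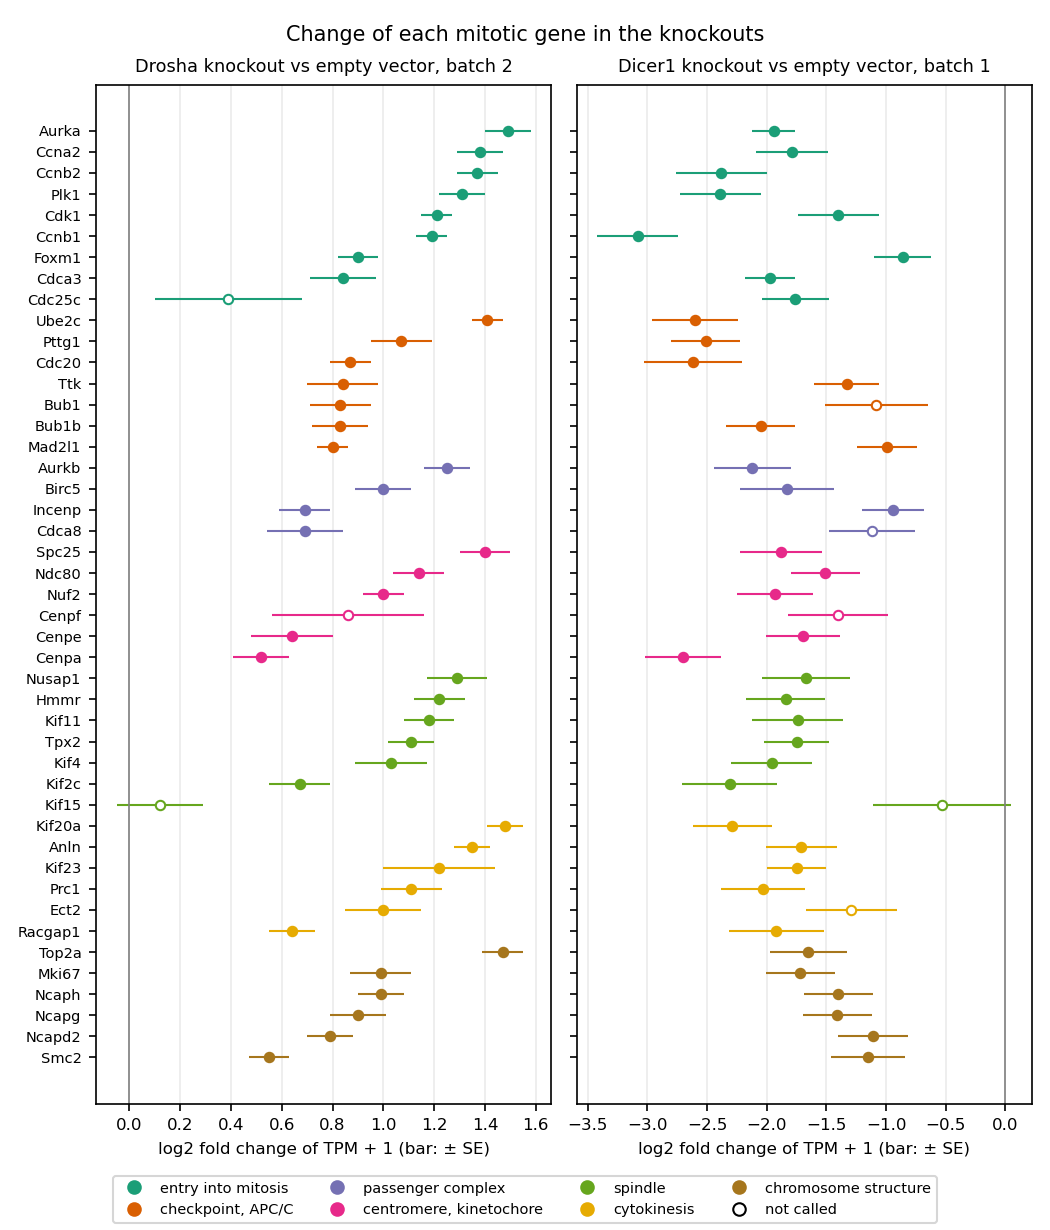
Log2 fold change of TPM + 1 with its SE for each gene, in Drosha knockout against the batch 2 empty vector (left) and in Dicer1 knockout against the batch 1 empty vector (right); colours give the role, open circles mark genes not called, and the x axes of the panels differ. Points lie between 0.12 and 1.49 on the left and between -3.08 and -0.53 on the right.

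Genes that start mitosis rose in Drosha knockout for 8 of 9 (median 1.21) and fell in Dicer1 knockout for 9 of 9 (median -1.94). Cdk1 (ENSMUSG00000019942), the kinase that drives entry and the most abundant member in every library, stood at 88.5, 94.6 and 91.5 TPM in Drosha knockout, against 39.3, 36.2 and 41.6 TPM in empty vector (1.21 ± 0.06, limma adjusted p = 1.42e-05). It stood at 48.5 and 41.8 TPM in Dicer1 knockout, against 174.9 and 83.1 TPM in empty vector (-1.40 ± 0.34, limma adjusted p = 0.0318). Neither knockout overlaps its own controls. Ccnb1 (ENSMUSG00000041431), the cyclin B partner of Cdk1, stood at 13.8, 15.0 and 14.4 TPM in Drosha knockout, against 6.01, 5.6 and 5.69 TPM in empty vector (1.19 ± 0.06, limma adjusted p = 2.44e-05). It fell to 3.65 and 4.52 TPM in Dicer1 knockout, against 59.6 and 29.3 TPM in empty vector (-3.08 ± 0.34, limma adjusted p = 0.0061), the largest fall of any member.

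Ccna2, which encodes cyclin A, stood at 12.8, 15.9 and 14.9 TPM in Drosha knockout, against 4.63, 4.97 and 5.28 TPM in empty vector (1.38 ± 0.09, limma adjusted p = 5.52e-05). In Dicer1 knockout it stood at 8.30 and 9.08 TPM, against 44.9 and 23.5 TPM in empty vector (-1.79 ± 0.30, adjusted p = 0.0133). Each set of knockout libraries is clear of its controls. Aurka, the Aurora A kinase of the spindle poles, made the largest rise of any member, with 9.89, 10.3 and 10.6 TPM in Drosha knockout against 3.46, 2.66 and 2.92 TPM in empty vector (1.49 ± 0.09, limma adjusted p = 4.50e-05). It stood at 7.0 and 7.76 TPM in Dicer1 knockout, against 35.5 and 27.2 TPM in empty vector (-1.94 ± 0.18, limma adjusted p = 0.00457). The batch 1 controls were closer to each other for Aurka than for most members.

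Foxm1, the transcription factor that activates many G2 and M genes, stood at 6.43, 6.37 and 6.49 TPM in Drosha knockout, against 2.99, 3.01 and 2.97 TPM in empty vector (0.90 ± 0.08, limma adjusted p = 0.000149). It stood at 12.1 and 11.1 TPM in Dicer1 knockout, against 27.6 and 17.3 TPM in empty vector (-0.86 ± 0.24, limma adjusted p = 0.0443), the smallest fall of this group of genes. Cdc25c, a phosphatase that activates Cdk1, was among the least abundant members. It stood at 1.53, 1.46 and 1.82 TPM in Drosha knockout, against 2.19, 0.508 and 0.631 TPM in empty vector (0.39 ± 0.29, limma adjusted p = 0.319), and control replicate 1 lay above all the knockout libraries. In Dicer1 knockout it stood at 0.839 and 1.59 TPM, against 7.23 and 5.59 TPM in empty vector (-1.76 ± 0.28, limma adjusted p = 0.0117). The other 3 members of the role, Ccnb2, Plk1 (a kinase that acts throughout mitosis) and Cdca3, rose by 0.84 to 1.37 in Drosha knockout and had changes of -2.39 to -1.97 in Dicer1 knockout.

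Genes of the spindle checkpoint and of APC/C activity rose in Drosha knockout for 7 of 7 (median 0.84) and fell in Dicer1 knockout for 6 of 7 (median -2.05). Ube2c (ENSMUSG00000001403), the ubiquitin-conjugating enzyme that works with APC/C, stood at 38.7, 39.2 and 42.2 TPM in Drosha knockout, against 15.3, 14.5 and 13.4 TPM in empty vector (1.41 ± 0.06, limma adjusted p = 1.29e-05). It stood at 15.2 and 20.8 TPM in Dicer1 knockout, against 164.0 and 78.1 TPM in empty vector (-2.60 ± 0.36, limma adjusted p = 0.00888). The knockout libraries were clear of their controls in both tables. Pttg1, the securin that keeps sister chromatids joined until APC/C destroys it, stood at 20.3, 17.7 and 17.9 TPM in Drosha knockout, against 6.65, 9.11 and 9.40 TPM in empty vector (1.07 ± 0.12, limma adjusted p = 0.000522). It stood at 11.9 and 9.78 TPM in Dicer1 knockout, against 89.2 and 49.0 TPM in empty vector (-2.51 ± 0.29, limma adjusted p = 0.00639).

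Cdc20, the activator of APC/C that the checkpoint blocks, stood at 8.14, 9.27 and 8.07 TPM in Drosha knockout, against 4.40, 4.24 and 3.91 TPM in empty vector (0.87 ± 0.08, limma adjusted p = 0.000254). It had the largest fall of this role in Dicer1 knockout, at 3.63 and 6.17 TPM against 51.1 and 23.1 TPM in empty vector (-2.62 ± 0.41, limma adjusted p = 0.0113). Mad2l1, the checkpoint protein that binds Cdc20, had the smallest changes of the role in both knockouts. It stood at 17.3, 17.2 and 16.5 TPM in Drosha knockout, against 9.81, 9.52 and 8.69 TPM in empty vector (0.80 ± 0.06, limma adjusted p = 9.07e-05). In Dicer1 knockout it stood at 19.7 and 20.3 TPM, against 53.3 and 31.0 TPM in empty vector (-0.99 ± 0.25, limma adjusted p = 0.0377). Bub1, a checkpoint kinase, stood at 3.59, 2.92 and 3.37 TPM in Drosha knockout, against 1.30, 1.60 and 1.32 TPM in empty vector (0.83 ± 0.12, limma adjusted p = 0.00158). Its libraries of Dicer1 knockout differed, at 2.77 and 6.24 TPM, against 14.1 and 7.10 TPM in empty vector, and it was not called there (-1.08 ± 0.43, limma adjusted p = 0.112). The checkpoint kinase Ttk and Bub1b rose by 0.84 and 0.83 in Drosha knockout and fell in Dicer1 knockout, with changes of -1.33 and -2.05.

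The chromosomal passenger complex, which corrects wrong attachments and later guides cytokinesis, has 4 members here. All 4 rose in Drosha knockout (median 0.85) and 3 fell in Dicer1 knockout (median -1.47). Aurkb (ENSMUSG00000020897), its kinase subunit, stood at 10.4, 8.85 and 10.0 TPM in Drosha knockout, against 3.49, 3.36 and 3.71 TPM in empty vector (1.25 ± 0.09, limma adjusted p = 5.89e-05). It stood at 4.38 and 6.05 TPM in Dicer1 knockout, against 35.1 and 18.8 TPM in empty vector (-2.12 ± 0.32, limma adjusted p = 0.0105), the largest change of the complex in both knockouts. Birc5, which encodes survivin, stood at 15.5, 16.8 and 16.8 TPM in Drosha knockout, against 8.92, 6.38 and 7.84 TPM in empty vector (1.00 ± 0.11, limma adjusted p = 0.000412). It stood at 11.4 and 14.5 TPM in Dicer1 knockout, against 72.8 and 31.7 TPM in empty vector (-1.83 ± 0.39, limma adjusted p = 0.0225), clear of the controls although those differed by 2.30 times.

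Incenp, the scaffold of the complex, moved least of the 4. It stood at 14.5, 14.8 and 14.7 TPM in Drosha knockout, against 7.33, 9.41 and 9.58 TPM in empty vector (0.69 ± 0.10, limma adjusted p = 0.00126). It stood at 18 and 16.6 TPM in Dicer1 knockout, against 44.6 and 25.7 TPM in empty vector (-0.94 ± 0.26, limma adjusted p = 0.0462). Cdca8, which encodes borealin, stood at 6.16, 6.35 and 7.66 TPM in Drosha knockout, against 3.21, 4.88 and 3.34 TPM in empty vector (0.69 ± 0.15, limma adjusted p = 0.00818). It stood at 7.47 and 8.46 TPM in Dicer1 knockout, against 27.1 and 12.4 TPM in empty vector, and was not called although the groups do not overlap (-1.12 ± 0.36, limma adjusted p = 0.0647).

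Centromere and kinetochore genes rose in Drosha knockout for 5 of 6 (median 0.93) and fell in Dicer1 knockout for 5 of 6 (median -1.79). Cenpa (ENSMUSG00000029177), the histone H3 variant that marks centromeres, had the smallest rise and the largest fall of these genes. It stood at 9.75, 9.56 and 8.81 TPM in Drosha knockout, against 6.68, 7.04 and 5.17 TPM in empty vector (0.52 ± 0.11, limma adjusted p = 0.00786). It stood at 8.61 and 6.53 TPM in Dicer1 knockout, against 75.0 and 39.3 TPM in empty vector (-2.70 ± 0.32, limma adjusted p = 0.00677). Spc25 and Nuf2 encode subunits of the Ndc80 complex, which binds microtubules at the kinetochore. Spc25 stood at 17.9, 15.2 and 18.7 TPM in Drosha knockout, against 6.70, 5.5 and 5.6 TPM in empty vector (1.40 ± 0.10, limma adjusted p = 6.98e-05). It stood at 6.62 and 7.49 TPM in Dicer1 knockout, against 41.2 and 19.8 TPM in empty vector (-1.88 ± 0.34, limma adjusted p = 0.0155).

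Nuf2 stood at 7.68, 8.47 and 8.47 TPM in Drosha knockout, against 3.51, 3.67 and 3.62 TPM in empty vector (1.00 ± 0.08, limma adjusted p = 9.07e-05). It stood at 5.2 and 5.39 TPM in Dicer1 knockout, against 32.4 and 16.3 TPM in empty vector (-1.93 ± 0.32, limma adjusted p = 0.0127). The Ndc80 gene itself rose by 1.14 in Drosha knockout and changed by -1.51 in Dicer1 knockout, and Cenpe, a kinetochore motor, by 0.64 and -1.70. Cenpf, a large kinetochore protein made in G2 phase, was called in neither knockout, and its libraries were uneven. It stood at 4.34, 1.47 and 2.21 TPM in Drosha knockout, against 1.40, 0.646 and 0.792 TPM in empty vector (0.86 ± 0.30, limma adjusted p = 0.0522). It stood at 0.870 and 2.74 TPM in Dicer1 knockout, against 7.69 and 4.62 TPM in empty vector (-1.40 ± 0.42, limma adjusted p = 0.0535). The groups do not overlap in either comparison.

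Spindle genes rose in Drosha knockout for 6 of 7 (median 1.11) and fell in Dicer1 knockout for 6 of 7 (median -1.75). Tpx2 (ENSMUSG00000027469), which activates Aurora A on spindle microtubules, stood at 15.1, 15.0 and 15.1 TPM in Drosha knockout, against 6.61, 5.63 and 7.22 TPM in empty vector (1.11 ± 0.09, limma adjusted p = 9.59e-05). It stood at 14.0 and 16.9 TPM in Dicer1 knockout, against 71.7 and 41.0 TPM in empty vector (-1.75 ± 0.27, limma adjusted p = 0.0112). The knockout ranges of the 2 tables overlap for Tpx2, whereas the control ranges do not; the tables were normalized separately. Kif11, the motor that pushes spindle poles apart, stood at 7.90, 7.86 and 8.87 TPM in Drosha knockout, against 3.45, 2.65 and 3.09 TPM in empty vector (1.18 ± 0.10, limma adjusted p = 0.000151). It stood at 4.06 and 5.28 TPM in Dicer1 knockout, against 26.6 and 11.9 TPM in empty vector (-1.74 ± 0.38, limma adjusted p = 0.0242).

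Hmmr, a spindle-associated protein, stood at 5.97, 6.04 and 5.61 TPM in Drosha knockout, against 1.92, 1.76 and 2.16 TPM in empty vector (1.22 ± 0.10, limma adjusted p = 0.000109). It stood at 4.59 and 3.87 TPM in Dicer1 knockout, against 24.9 and 12.4 TPM in empty vector (-1.84 ± 0.33, limma adjusted p = 0.0155). Nusap1, which bundles spindle microtubules, rose most of this role on the log2(TPM + 1) scale. By ratio of mean TPM, Kif4 (3.08) and Hmmr (3.02) lay above Nusap1 (2.95). Nusap1 stood at 8.36, 7.99 and 7.70 TPM in Drosha knockout, against 2.23, 2.60 and 3.33 TPM in empty vector (1.29 ± 0.12, limma adjusted p = 0.000215). It stood at 2.33 and 3.53 TPM in Dicer1 knockout, against 16.4 and 7.75 TPM in empty vector (-1.67 ± 0.37, limma adjusted p = 0.0263).

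Kif2c, a kinesin that takes microtubules apart at centromeres, fell most of the spindle genes. It stood at 3.26, 2.65 and 3.35 TPM in Drosha knockout, against 1.55, 1.71 and 1.45 TPM in empty vector (0.67 ± 0.12, limma adjusted p = 0.00436). It stood at 1.65 and 2.18 TPM in Dicer1 knockout, against 20.5 and 8.68 TPM in empty vector (-2.31 ± 0.40, limma adjusted p = 0.0141). Kif15, a kinesin that can back up Kif11, was the member that did not separate the groups. It stood at 1.83, 1.38 and 1.71 TPM in Drosha knockout, against 1.57, 1.03 and 1.73 TPM in empty vector (0.12 ± 0.17, limma adjusted p = 0.603). It stood at 2.53 and 7.52 TPM in Dicer1 knockout, against 11.3 and 4.08 TPM in empty vector (-0.53 ± 0.58, limma adjusted p = 0.519). Both pairs of groups overlap for Kif15. Kif4, a chromosome-bound kinesin, rose by 1.03 in Drosha knockout and changed by -1.96 in Dicer1 knockout.

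Cytokinesis genes rose in Drosha knockout for 6 of 6 (median 1.17) and fell in Dicer1 knockout for 5 of 6 (median -1.83). Racgap1 (ENSMUSG00000023015), which forms the centralspindlin complex with Kif23, stood at 20.3, 22.5 and 23.7 TPM in Drosha knockout, against 14.0, 12.4 and 15.3 TPM in empty vector (0.64 ± 0.09, limma adjusted p = 0.00108). It stood at 12 and 15.9 TPM in Dicer1 knockout, against 83.8 and 36.0 TPM in empty vector (-1.92 ± 0.40, limma adjusted p = 0.0212). Its rise was the smallest of the role, while its partner Kif23 rose by 1.22. Kif20a, a midzone kinesin, had the largest changes of the role in both knockouts. It stood at 17.1, 17.6 and 16.5 TPM in Drosha knockout, against 5.93, 5.63 and 4.95 TPM in empty vector (1.48 ± 0.07, limma adjusted p = 2.10e-05). It stood at 6.62 and 7.42 TPM in Dicer1 knockout, against 53.8 and 26.9 TPM in empty vector (-2.29 ± 0.33, limma adjusted p = 0.00936).

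Prc1, which bundles the antiparallel microtubules of the midzone, stood at 14.7, 16.8 and 15.0 TPM in Drosha knockout, against 5.62, 8.06 and 6.30 TPM in empty vector (1.11 ± 0.12, limma adjusted p = 0.000395). It stood at 10.1 and 11.1 TPM in Dicer1 knockout, against 67.5 and 31.5 TPM in empty vector (-2.03 ± 0.35, limma adjusted p = 0.0137). Ect2, the exchange factor that activates RhoA at the furrow, rose in Drosha knockout and was not called in Dicer1 knockout. It stood at 4.45, 4.09 and 4.56 TPM in Drosha knockout, against 2.11, 1.18 and 1.82 TPM in empty vector (1.00 ± 0.15, limma adjusted p = 0.00169). It stood at 3.78 and 2.67 TPM in Dicer1 knockout, against 13.8 and 6.14 TPM in empty vector (-1.29 ± 0.38, limma adjusted p = 0.0541). Anln, which encodes the furrow scaffold anillin, changed by 1.35 and -1.71 in the Drosha and the Dicer1 knockout and was called in both.

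Genes of chromosome structure rose in Drosha knockout for 6 of 6 (median 0.94) and fell in Dicer1 knockout for 6 of 6 (median -1.40). Top2a (ENSMUSG00000020914), the topoisomerase that untangles sister chromatids, stood at 30.6, 33.2 and 37.6 TPM in Drosha knockout, against 11.3, 10.9 and 12.4 TPM in empty vector (1.47 ± 0.08, limma adjusted p = 2.99e-05). It stood at 18.1 and 17.9 TPM in Dicer1 knockout, against 83.3 and 41.3 TPM in empty vector (-1.65 ± 0.32, limma adjusted p = 0.0179). Mki67, which encodes the proliferation marker Ki-67 and coats mitotic chromosomes, had the largest fall of this role. It stood at 4.43, 4.47 and 5.76 TPM in Drosha knockout, against 1.83, 1.86 and 2.14 TPM in empty vector (0.99 ± 0.12, limma adjusted p = 0.000719). It stood at 5.26 and 7.19 TPM in Dicer1 knockout, against 29.4 and 17.4 TPM in empty vector (-1.72 ± 0.29, limma adjusted p = 0.0127).

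Condensin, the complex that compacts chromosomes, is represented by 4 subunits. Smc2, a core ATPase subunit, stood at 5.80, 6.06 and 6.65 TPM in Drosha knockout, against 3.88, 3.94 and 3.91 TPM in empty vector (0.55 ± 0.08, limma adjusted p = 0.0017). It stood at 6.82 and 9.07 TPM in Dicer1 knockout, against 25.5 and 13.7 TPM in empty vector (-1.15 ± 0.31, limma adjusted p = 0.0437). Ncapd2, a subunit of condensin I, stood at 9.93, 10.3 and 11.9 TPM in Drosha knockout, against 6.31, 5.26 and 5.71 TPM in empty vector (0.79 ± 0.09, limma adjusted p = 0.000577). It stood at 16.6 and 22.4 TPM in Dicer1 knockout, against 56.4 and 32.6 TPM in empty vector (-1.11 ± 0.29, limma adjusted p = 0.0373). The other condensin I genes, Ncapg and Ncaph, rose by 0.90 and 0.99 in Drosha knockout and had changes of -1.41 and -1.40 in Dicer1 knockout.

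**Figure D4:**
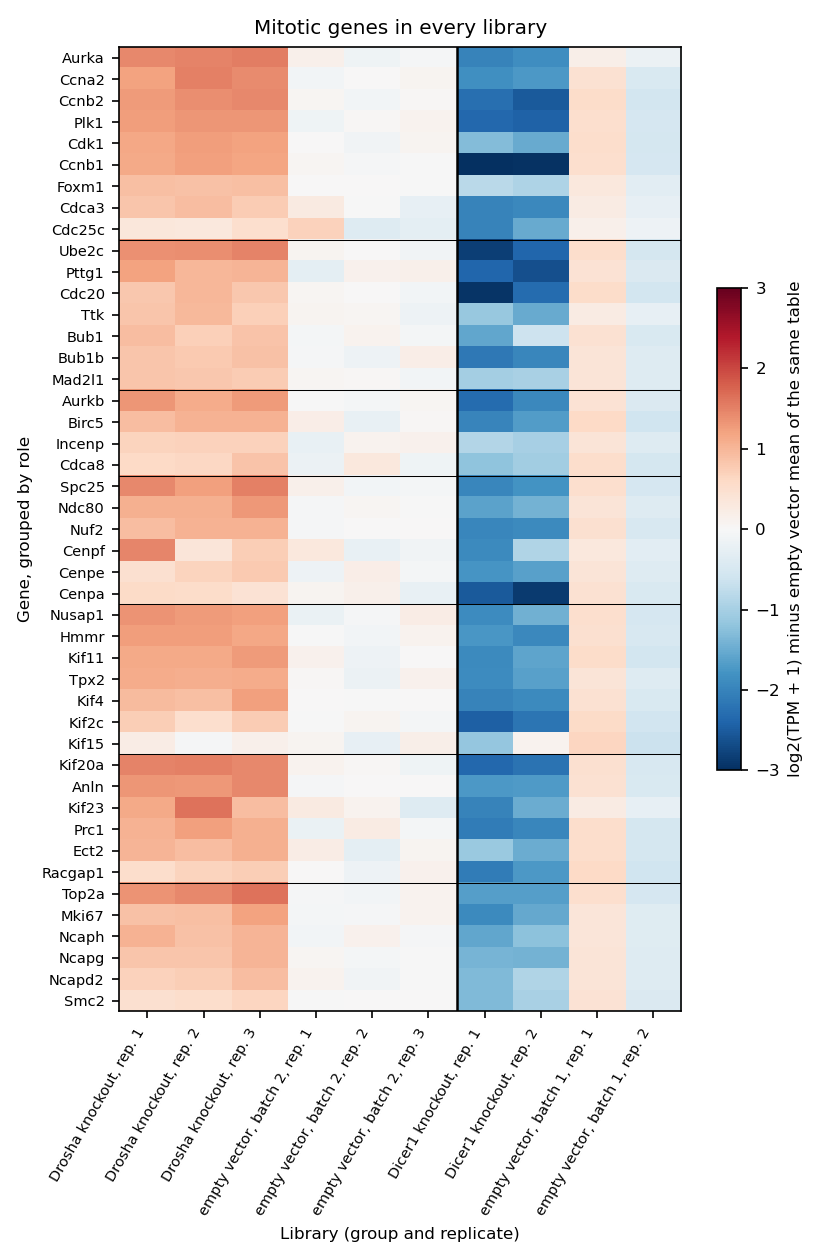
Log2(TPM + 1) of each gene in each of the 10 libraries minus the mean of the empty vector libraries of the same table, with genes grouped by role and colours limited to -3 and 3. The Drosha knockout libraries are above their controls for nearly all genes, both Dicer1 knockout libraries are below the mean of theirs for nearly all genes (Kif15 in replicate 2 is an exception), and within the batch 1 controls replicate 1 is above replicate 2 for all 45 genes.

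By summed TPM, the empty vector controls of the batches were further apart than either knockout was from its control; the tables were normalized separately. In the batch 1 controls the 45 genes took 0.194% and 0.1% of all TPM, against 0.0238%, 0.0229% and 0.0238% in the batch 2 controls, a ratio of mean sums of 6.25. Over the 45 genes, ratios of mean TPM in the batch 1 controls to the batch 2 controls ran from 3.31 (Cdk1) to 12 (Mki67). Their median was 7.32, against a median of 1.04 over the 11146 genes tested in both tables. The Drosha knockout libraries, with sums of 534.7 to 562.2 TPM, also lay below the batch 1 controls, at 1935.3 and 1001.2 TPM. The order of the genes by mean level was much alike in the controls of the batches (Pearson r = 0.931, Spearman rho = 0.921 across the 45 genes, whose values come from the same libraries). The batches were tested in no model, and genotype and batch coincide, so no p-value is given for these levels, and what set the controls apart was not tested.

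**Figure D5:**
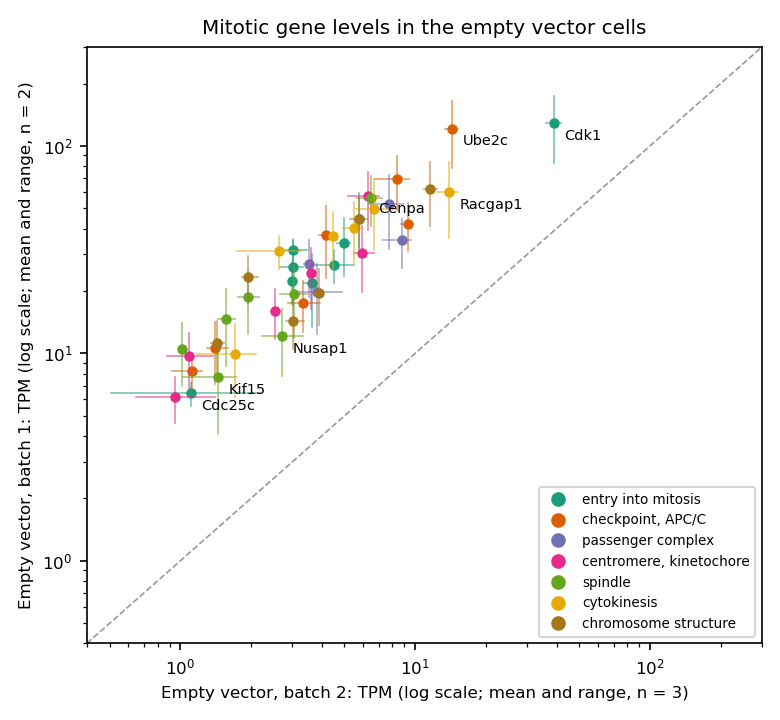
Mean TPM of each of the 45 genes in the batch 1 empty vector (y axis) against the batch 2 empty vector (x axis), both on log axes, with the range over libraries (thin lines, n = 2 and n = 3) and the line of equal level (dashed). All points lie above the line, between 3.31 and 12 times.

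Sizes of change were related only loosely between the knockouts. Across the 45 genes, the log2 fold change in Drosha knockout and that in Dicer1 knockout had a Pearson r of -0.405 and a Spearman rho of -0.363, given as a description of genes measured in shared libraries.

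Other genes of the cell cycle were taken from lists chosen with earlier results of these data known. Over all genes tested, 35.3% were called higher and 7.42% lower in Drosha knockout, and 21.5% higher and 9.6% lower in Dicer1 knockout. Of 72 further mitotic genes, 68 were tested in Drosha knockout: 55 rose and 0 fell (median 0.69), and the count was 45 and 0 after median-ratio scaling, which moves the median of all genes from 0.13 to about 0. The largest rises were those of Cep55, a midbody protein (1.36 ± 0.12, limma adjusted p = 0.000173), Pbk (1.30 ± 0.17), Dlgap5 (1.28 ± 0.19) and Depdc1a (1.27 ± 0.13). Depdc1a stood at only 0.716, 1.01 and 0.742 TPM in the batch 2 controls. Among the genes that rose, Knl1, Haspin, Iqgap3, Nsl1 and Depdc1b were under 1 TPM in every batch 2 control. They passed the filter on low values only through the knockout libraries, which favours a rise. In Dicer1 knockout, 42 of 71 fell and 1 rose (median -1.29), led by Cdkn3 (-2.59 ± 0.46, limma adjusted p = 0.0147), the centromere gene Cenpm (-2.52 ± 0.27), Fam83d (-2.50 ± 0.25) and the kinetochore gene Knstrn (-2.48 ± 0.27). The gene that rose was Zwint, which encodes a kinetochore protein; it was singled out after its values were seen. Zwint stood at 507.2 and 481.1 TPM in Dicer1 knockout, against 213.2 and 244.1 TPM in empty vector (1.11 ± 0.10, limma adjusted p = 0.00438), and it rose in Drosha knockout too, by 1.07.

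Of 36 S phase genes, 29 rose and 0 fell in Drosha knockout (median 0.51; 21 and 0 after median-ratio scaling). Mcm5, part of the replicative helicase (1.32 ± 0.09, limma adjusted p = 6.16e-05), Tk1 (1.23 ± 0.08), Rrm1 (1.21 ± 0.05) and Cdc6 (1.02 ± 0.14) led. Cdc6 was under 1 TPM in every batch 2 control (0.777, 0.851 and 0.707 TPM). It passed the filter on low values only through the knockout libraries, which favours a rise. In Dicer1 knockout 20 of the 36 fell and 0 rose (median -0.91), led by Uhrf1 (-1.91 ± 0.41, limma adjusted p = 0.0232), Prim1 (-1.90 ± 0.21), Rrm2 (-1.41 ± 0.28) and Mcm5 (-1.36 ± 0.25). Of 8 genes of G1 cyclins and their kinases, 7 rose in Drosha knockout (median 0.74), with Ccne1 (1.25 ± 0.07, limma adjusted p = 3.33e-05), Ccne2 (1.00 ± 0.15), Ccnd2 (0.96 ± 0.05) and Ccnd3 (0.94 ± 0.04) moving most. In Dicer1 knockout, Ccne1 fell (-0.97 ± 0.16, limma adjusted p = 0.0118), while Cdk6 (0.92 ± 0.14) and Ccnd3 (0.77 ± 0.12) rose; 2 of 8 is 25% higher, near the 21.5% of all genes, and the list median of 0.13 became -0.05 after median-ratio scaling.

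Of 17 genes of APC/C and its regulators, 7 rose and 0 fell in Drosha knockout (median 0.11). That is 41.2% called higher, near the 35.3% of all genes. The split became 2 and 3 with a median of -0.03 after median-ratio scaling, where the direction flips. The largest changes were those of Fbxo5, an APC/C inhibitor (0.69 ± 0.11, limma adjusted p = 0.00215), Ube2s, an APC/C partner enzyme (0.59 ± 0.05), Anapc1 (0.30 ± 0.07) and Fzr1 (0.23 ± 0.05). In Dicer1 knockout Fbxo5 (-1.55 ± 0.26, limma adjusted p = 0.0136) and Ube2s (-0.67 ± 0.10) fell, or 11.8% lower, near the 9.6% of all genes. Anapc16 rose (0.53 ± 0.12), a rise not called after either scaling, and 14 were not called. The split was 0 higher and 4 lower after median-ratio scaling. Of 10 cohesin genes, 7 rose in Drosha knockout (median 0.23), or 70% against 35.3% of all genes, and 0 were called after median-ratio scaling. Stag1 (0.30 ± 0.07, limma adjusted p = 0.00862), Stag2 (0.26 ± 0.07), Wapl (0.26 ± 0.06) and Mau2 (0.26 ± 0.07) moved most. In Dicer1 knockout 4 cohesin genes rose and 0 fell (median 0.48), or 40% higher against 21.5% of all genes, and 3 rose after median-ratio scaling. The 4 were Nipbl (0.79 ± 0.11, limma adjusted p = 0.00965), Mau2 (0.63 ± 0.13), Pds5a (0.61 ± 0.10) and Stag2 (0.48 ± 0.13).

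Of 19 genes of the DREAM complex and the E2F family, 12 rose and 0 fell in Drosha knockout (median 0.28; 7 and 0 after median-ratio scaling). The largest rises were those of the E2F genes E2f7 (1.27 ± 0.13, limma adjusted p = 0.000355), E2f6 (1.18 ± 0.06), E2f5 (0.80 ± 0.06) and E2f8 (0.70 ± 0.15). E2f7 (0.87, 0.899 and 0.931 TPM) and E2f8 (0.73, 0.939 and 0.638 TPM) were under 1 TPM in every batch 2 control. Both passed the filter on low values only through the knockout libraries, which favours a rise. In Dicer1 knockout 6 rose and 2 fell (1 and 3 after median-ratio scaling), or 31.6% higher against 21.5% of all genes and 10.5% lower against 9.6%; Mybl2, which encodes B-Myb, the partner of Foxm1 in activating G2 and M genes (-1.15 ± 0.31, limma adjusted p = 0.0409), and E2f8 (-1.11 ± 0.29) fell, and E2f3 (0.69 ± 0.13) and the retinoblastoma gene Rb1 (0.62 ± 0.17) had the largest rises. Of the 7 genes of cyclin-dependent kinase inhibitors, 4 were tested in Drosha knockout and 3 rose: Cdkn2d (0.48 ± 0.07, limma adjusted p = 0.0013), Cdkn1a, which encodes p21 (0.47 ± 0.05), and Cdkn1b, which encodes p27 (0.40 ± 0.03). Of 5 tested in Dicer1 knockout, Cdkn1a rose (0.67 ± 0.09, limma adjusted p = 0.00907), at 592.1 and 530.6 TPM in the knockout against 339.0 and 365.4 TPM in empty vector. Cdkn2d fell (-0.83 ± 0.24, limma adjusted p = 0.0495). That is 20% higher, near the 21.5% of all genes, and 20% lower against 9.6%.

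Markers of other cell states were measured beside the mitotic genes. Of 9 adipocyte markers, 7 fell and 1 rose in Drosha knockout (median -0.54), led by Adipoq (-1.08 ± 0.05, limma adjusted p = 1.20e-05), Cidec (-1.05 ± 0.06), Plin1 (-0.99 ± 0.07) and Lipe (-0.61 ± 0.08). In Dicer1 knockout 8 fell and 0 rose (median -2.13), led by Adipoq (-5.39 ± 0.29, limma adjusted p = 0.00174), Plin1 (-5.01 ± 0.32), Cd36 (-3.52 ± 0.22) and Cidec (-2.62 ± 0.26). Their summed level was 1945.2 to 1995.4 TPM in Drosha knockout, against 1971.3 to 1984.2 TPM in the batch 2 controls, and 359.5 and 388.7 TPM in Dicer1 knockout, against 1224.7 and 1047.1 TPM in the batch 1 controls. Most adipocyte markers thus fell in both knockouts, although their sums overlap in batch 2 (Fabp4, a fatty acid carrier, rose there), whereas the mitotic genes went opposite ways.

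Of the 8 mesenchymal markers in the list chosen here, Pdgfra stood at 43.4 TPM or higher in every library, and Pdgfrb and Vcam1 at 7.02 TPM or higher. Thy1 was at or below 1.00 TPM in every library, and Eng at 0.553 to 2.49 TPM. Nt5e was at 0.169 to 0.251 TPM in batch 2 and 2.18 to 14.1 TPM in batch 1. Col1a1 and Col1a2 make up most of the sum in every library. The 8 markers summed to 5069.2 to 5489.1 TPM in Drosha knockout, against 5694.0 to 6126.4 TPM in its controls, and to 782.5 and 787.4 TPM in Dicer1 knockout, against 1648.2 and 1413.0 TPM in its controls. Of these, Vcam1 rose (0.62 ± 0.03, limma adjusted p = 2.10e-05) and Col1a1 (-0.37 ± 0.06) and Col1a2 (-0.20 ± 0.04) fell in Drosha knockout. In Dicer1 knockout Nt5e rose (1.98 ± 0.21, limma adjusted p = 0.00604) and Pdgfrb (-2.13 ± 0.23), Col1a2 (-1.52 ± 0.18) and Col1a1 (-0.70 ± 0.08) fell. The 8 macrophage markers summed to 28.1 to 38.2 TPM in every library, with the defining genes Ptprc, Adgre1 and Itgam at 0.142 TPM or lower. Other genes of that list were present: Lyz2 stood at 17.7 to 20.8 TPM in batch 2 and at 0.64 TPM or lower in batch 1, Cd68 at 0.925 to 2.29 TPM in batch 2 and 11.8 to 19.6 TPM in batch 1, and Cd14 at 6.17 to 19.1 TPM in every library. Cd14 rose in Drosha knockout (0.40 ± 0.11, limma adjusted p = 0.0186; not called after either scaling). The 7 endothelial markers summed to 0.138 to 2.85 TPM and none was tested. The part of these cell states in the changes of the mitotic genes was not tested.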

How the data were processed

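RNA of 10 OP9 libraries was analysed from the TPM tables the authors deposited, 1 per batch; kallisto 0.48.0 is named in the submitters' processing notes, and for the index, annotation and build the entry is: not given in the sources used here. The labels name several RNA kits and sequencers without assigning them. Members and gene lists were chosen with earlier results of these data known. Each table was tested alone with limma 3.58.1 in R 4.3.3 on log2(TPM + 1) with a mean trend, over genes at 1 TPM or more in at least 3 of the Drosha table's libraries or 2 of the Dicer1 table's, with Benjamini-Hochberg adjustment at 0.05; the difference used 1 fit of all libraries. Values per library are given, in each role, for the 3 members with the highest mean TPM, those with the largest and smallest change in each knockout and those not called; of other lists, up to 4 called genes with the largest change. Alternatives were pseudocount, filter, scaling, trend, replicate block, only genes named in both tables, and leaving out each library. TPM keep no depth, so no counting interval is given. Promoter windows are from RefSeq (GRCm38.p6).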

Additional observations from a re-analysis of the deposited data

Results flagged for a closer look

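The change in Drosha knockout and the change in Dicer1 knockout, each against the empty vector of its own batch, differed for 44 of the 45 genes by the test of the difference itself, a limma contrast over all 10 libraries with Benjamini-Hochberg adjustment. The values are the log2 change in Drosha knockout minus that in Dicer1 knockout, on the log2(TPM + 1) scale, and all are above 0. Among genes of mitotic entry it was 2.61 for Cdk1, 4.27 for Ccnb1, 3.75 for Ccnb2, 3.17 for Ccna2, 2.14 for Cdc25c, 3.70 for Plk1, 3.43 for Aurka, 1.76 for Foxm1 and 2.81 for Cdca3. For the checkpoint and APC/C genes it came to 1.92 for Bub1, 2.88 for Bub1b, 1.79 for Mad2l1, 2.17 for Ttk, 3.49 for Cdc20, 4.02 for Ube2c and 3.59 for Pttg1. In the chromosomal passenger complex it was 3.37 for Aurkb, 2.83 for Birc5, 1.62 for Incenp and 1.81 for Cdca8. For kinetochore genes it came to 3.22 for Cenpa, 2.34 for Cenpe, 2.26 for Cenpf, 2.65 for Ndc80, 2.93 for Nuf2 and 3.28 for Spc25. Among spindle genes it was 2.93 for Kif11, 2.98 for Kif2c, 2.99 for Kif4, 2.86 for Tpx2, 2.95 for Nusap1 and 3.06 for Hmmr. For cytokinesis genes it came to 3.14 for Prc1, 3.77 for Kif20a, 2.97 for Kif23, 2.56 for Racgap1, 2.30 for Ect2 and 3.06 for Anln. Among genes of chromosome structure it was 3.12 for Top2a, 2.72 for Mki67, 1.70 for Smc2, 2.30 for Ncapg, 2.38 for Ncaph and 1.91 for Ncapd2. Knockout and batch coincide in this contrast, so a difference between the knockouts and one between the batches cannot be told apart.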

How the results depend on the processing

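In Drosha knockout the members kept a median change above 0 under every alternative run: 1.23 and 1.12 with pseudocounts of 0.1 and 0.5, 1.13 with a minimum of 5 TPM (34 members tested), 0.88 after median-ratio scaling, 0.86 after quantile normalization, and 0.98 to 1.04 with 1 library left out, when 42 to 44 members were called. In those fits with 1 library left out, 3752 to 4020 of the 12477 to 12574 genes tested were called higher. In Dicer1 knockout, leaving out 1 library gave medians of -2.16 to -1.34. No filter on low values gave 11 called members, with fewer of all genes called too. Limma without the mean trend gave 34, where 950 of all 12239 genes tested were called lower. Median-ratio scaling gave 43, where 1711 of 12240 were. The difference stayed at 44 called members with any 1 batch 2 library left out. In those fits 1636 to 1679 of the 11035 to 11098 genes tested were called higher. Kif15 turned round in Drosha knockout, to -0.01 without empty vector replicate 2 (range 0.20 down to -0.01 over libraries left out), and in Dicer1 knockout, to 0.11 without knockout replicate 1 and to 0.11 without empty vector replicate 1 (range -1.17 to 0.11). The cause of these shifts was not tested. Limited to genes named in both tables, 43 members were called higher in Drosha knockout, where 4472 of the 11687 genes tested were. With the replicate number as a block, 43 members were called in Drosha knockout, 41 in Dicer1 knockout and 44 in the difference. Over all genes, 4295 of 12739 were then called higher in Drosha knockout and 979 of 12239 lower in Dicer1 knockout. In the difference, 1741 of 11146 were called higher. Deviations of same-numbered libraries had correlations of -0.0213, 0.0203 and -0.00679 in batch 2 and -0.0921 in batch 1. Deviations from the mean of a group of 2 or 3 libraries constrain each other. These correlations therefore cannot decide whether the numbers pair the libraries. Depth is unknown, 2 libraries a group limit the Dicer1 comparison, and 4 members were under 1 TPM in some batch 2 control.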
